A study of Homo sapiens with 8 samples.

Results

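The RNA polymerase III transcripts 7SK (gene RN7SK), Y1 (RNY1) and the RNA of RNase P (RPPH1) were described in libraries of RNA precipitated with hnRNP U and of RNA without precipitation. They are 3 of the 13471 genes of the deposited gene table. They were chosen by their strong depletion in the immunoprecipitate (IP) and by the share of the summed FPKM (a level per unit of transcript length and of mapped fragments) they hold, so their IP differences and shares are given as a description with no test. hnRNP U, also called SAF-A, is an abundant nuclear protein that binds RNA and chromatin. All libraries come from 1 established human line, hTERT-RPE1, derived from retinal pigment epithelium and made immortal by telomerase. For interphase, cells spent 24 h in 2 mM thymidine, a block of DNA replication. Mitotic cells had the same 24 h in 2 mM thymidine, then 6 h of release and a night in STLC, which inhibits the spindle motor Eg5. RNA from each phase was sequenced with no antibody step (no IP) and after precipitation with an antibody to hnRNP U (IP), giving 4 groups with 2 replicates each. Lysates were cleared by centrifugation, ribosomal RNA was removed, and the library kit kept the strand. Precipitation with a control antibody is not analysed here, so RNA held by hnRNP U and RNA held by the beads cannot be told apart. The labels do not say whether the replicates were separate cultures, so p-values measure only the spread between these samples.

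The 3 RNAs are short, folded and untranslated. 7SK is the scaffold of a small nuclear particle in which HEXIM proteins hold the kinase P-TEFb, which releases paused RNA polymerase II, in an inactive state. MEPCE caps 7SK, and LARP7 binds its U-rich end. RPPH1 is the catalytic RNA of RNase P, the enzyme that trims the 5' ends of transfer RNA precursors, and it is related to RMRP, the RNA of RNase MRP, which shares most of its proteins with RNase P. Y1 is a small cytoplasmic RNA bound by Ro60 and, through its terminal U run, by the La protein (SSB). In mitosis the nuclear envelope is broken down and RNA polymerase III transcription is known to be repressed.

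The sequences below show the molecules that the values describe, 5' to 3', from GENCODE 29 transcripts on GRCh38, the assembly also called hg38. RN7SK lies at chr6:52995621-52995948 on the plus strand, and its only annotated exon spans the whole gene of 328 nt, of which bases 1 to 300 are shown. RNY1 lies at chr7:148987136-148987248 on the minus strand and is shown whole, at 113 nt. RPPH1 lies at chr14:20343075-20343407 on the minus strand, and bases 1 to 300 of its 333 nt are shown. RMRP at chr9:35657751-35658018 on the minus strand is shown whole, at 268 nt, as the closest relative of RPPH1. Capitals mark GATC in RN7SK, the final T run in RNY1 and, in RPPH1 and RMRP, the one stretch of 8 or more letters that both hold.
RN7SK: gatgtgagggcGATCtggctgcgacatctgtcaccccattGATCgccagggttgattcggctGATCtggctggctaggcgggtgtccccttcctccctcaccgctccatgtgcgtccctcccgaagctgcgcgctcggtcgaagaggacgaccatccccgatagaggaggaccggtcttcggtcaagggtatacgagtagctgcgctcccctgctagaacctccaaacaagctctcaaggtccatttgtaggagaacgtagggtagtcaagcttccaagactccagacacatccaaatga
RNY1: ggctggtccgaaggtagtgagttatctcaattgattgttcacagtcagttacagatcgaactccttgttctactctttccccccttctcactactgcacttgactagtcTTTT
RPPH1: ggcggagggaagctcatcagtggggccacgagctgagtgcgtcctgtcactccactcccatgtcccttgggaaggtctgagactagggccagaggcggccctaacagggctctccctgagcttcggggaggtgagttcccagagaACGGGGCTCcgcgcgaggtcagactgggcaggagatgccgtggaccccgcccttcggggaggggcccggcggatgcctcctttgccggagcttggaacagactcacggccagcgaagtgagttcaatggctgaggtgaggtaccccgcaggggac
RMRP: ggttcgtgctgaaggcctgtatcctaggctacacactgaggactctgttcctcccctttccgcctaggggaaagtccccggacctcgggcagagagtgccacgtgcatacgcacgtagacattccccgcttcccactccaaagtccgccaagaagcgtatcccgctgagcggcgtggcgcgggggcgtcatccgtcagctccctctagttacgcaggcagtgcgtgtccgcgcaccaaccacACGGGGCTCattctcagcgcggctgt

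RN7SK held GATC, the tetranucleotide repeated in the part of 7SK that HEXIM1 binds, 3 times, at bases 12 to 15, 41 to 44 and 63 to 66. GATC is its own reverse complement, so a search of the other strand gives the same positions, and the copies do not overlap. Among the 205 transcripts of at most 400 nt that could be matched to the table, 37.6% held GATC at least once and 5 (2.44%) held it 3 times or more. RNY1 had 1 copy of GATC, and RPPH1 and RMRP had 0. RNY1 ended in TTTT at bases 110 to 113, read on the transcript's own strand. It was 1 of 2 such among the 205 short transcripts (0.976%), with RNU6ATAC, beside 1.03% of all 12681 matched transcripts. The RN7SK transcript used ended in 1 T at position 52995948. Its interval in the deposited table ends at 52995951, so bases at its end were not scored. The stretch ACGGGGCTC stood at bases 146 to 154 of RPPH1 and 243 to 251 of RMRP. It was defined as what these RNAs share, and no other of the 205 short transcripts held it on its own strand. Whether unrelated RNAs share runs of this length as often was not tested.

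GC content was 44.2% in RNY1, 58.2% in RN7SK and 64.6% in RPPH1. Folded alone at 37 °C with RNAfold, RPPH1 had a minimum free energy of -162.2 kcal/mol, RN7SK of -109 kcal/mol and RNY1 of -34.4 kcal/mol. Per nucleotide these are -0.487, -0.332 and -0.304 kcal/mol, so RPPH1 was predicted to be the most tightly folded of the 3. In the deposited table the intervals of RN7SK, RNY1 and RPPH1 are 332, 113 and 341 nt wide, the lengths of the RefSeq models, and none overlaps the interval of another gene in the table. Processed copies of 7SK and Y RNA genes are scattered over the genome. Such copies are not analysed here, and how reads they share with RN7SK and RNY1 were placed is not given in the sources used here.

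Over all 13471 genes, replicates of a group had correlations of log2 levels between 0.989 and 0.995 (Pearson's r). The sum of FPKM over the table ran from 1017310 to 1249970 without IP and from 321539 to 459661 in the IP. Fragment totals of the libraries are unknown, and no counting interval is given. Of 9 retinal pigment epithelium markers 5 were measured. MITF, OTX2, KRT8 and KRT18 had mean levels of 8.25, 3.89, 58.5 and 39.0 FPKM in mitosis without IP, and PMEL was at 0.0451 FPKM there. RPE65, BEST1, RLBP1 and TYR, which mark differentiated pigment epithelium, are not analysed here. All 5 mitotic markers (CCNB1, PLK1, CDC20, AURKA, HMMR) were called higher in mitosis without IP, beside 26.2% of all genes.

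The levels of the 3 RNAs were among the highest of the table without IP, and all 3 were far lower in every IP library. RPPH1 had 141706 and 168097 FPKM in interphase without IP (replicates 1 and 2) and 120772 and 110649 FPKM in mitosis without IP. In the IP it had 349 and 1494 FPKM in interphase and 826 and 915 FPKM in mitosis. The lowest library without IP thus lay far above the highest IP library, and the 2 interphase IP libraries differed by 4.28-fold from each other. RPPH1 ranked first in the table in 3 of the 4 libraries without IP and had rank 3 in mitosis replicate 1, with ranks of 9 to 75 in the IP libraries.

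RN7SK had 93818 and 102121 FPKM in interphase without IP and 88057 and 81792 FPKM in mitosis without IP. In the IP it had 2762 and 3291 FPKM in interphase and 1734 and 1997 FPKM in mitosis. It was the steadiest of the 3 between replicates, which differed by 1.08-fold to 1.19-fold in the 4 groups. Without IP RN7SK ranked 4 or 5, and in the IP its rank ran from 5 to 21.

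RNY1 had 17851 and 10700 FPKM in interphase without IP and 13512 and 6501 FPKM in mitosis without IP. In the IP it had 34.3 and 53.7 FPKM in interphase and 116 and 35.7 FPKM in mitosis. Replicate 1 exceeded replicate 2 in 3 of the 4 groups, and the replicates of the mitotic IP differed by 3.26-fold. Without IP RNY1 ranked 7 to 12, and in the IP its rank ran from 569 to 2217.

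**Figure D1:**
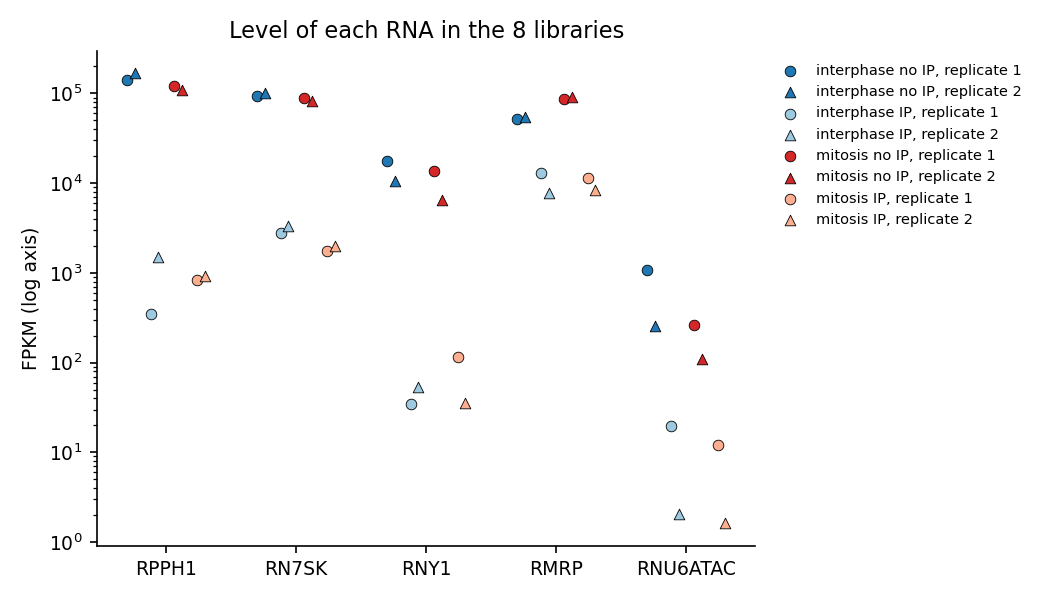
Level in FPKM (log axis) of RPPH1, RN7SK, RNY1 and of the other measured Pol III RNAs RMRP and RNU6ATAC in each of the 8 libraries; circles are replicate 1, triangles replicate 2, colours the 4 groups. All 4 IP libraries of each gene lie below its 4 libraries without IP, and the gap is narrowest for RMRP. How many of all genes separate in this way was not counted.

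The order of the 3 RNAs was RPPH1, RN7SK, RNY1 in the 4 libraries without IP and RN7SK, RPPH1, RNY1 in the 4 IP libraries. FPKM is a level per length, so these orders are not orders of fragment number. Whether RNAs of these lengths entered the libraries equally was not tested, so they are not shown to be orders of molecules either. RPPH1 stood at 1.51 and 1.65 times RN7SK in interphase and at 1.37 and 1.35 times in mitosis without IP. In the IP the same ratio was 0.126 and 0.454 in interphase and 0.476 and 0.458 in mitosis. 3 of the 4 IP libraries thus lay close together, and interphase IP replicate 1, which had the lowest RPPH1 level, stood apart. The ratio of RPPH1 to RNY1 followed the replicate number more than the IP. It was 7.94, 10.2, 8.94 and 7.11 in the replicate 1 libraries (interphase no IP, interphase IP, mitosis no IP, mitosis IP), and 15.7, 27.8, 17.0 and 25.7 in those of replicate 2.

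Together the 3 RNAs held 23.3% and 24.7% of the FPKM sum in interphase without IP and 17.8% and 19.6% in mitosis without IP. In the IP they held 0.900% and 1.50% in interphase and 0.582% and 0.776% in mitosis. RPPH1 alone held 13.0% and 14.8% of the sum in interphase without IP, RN7SK 8.63% and 8.97%, and RNY1 1.64% and 0.940%. Because the sum adds levels per length, short RNAs weigh heavily in it. Weighted by the longest transcript of each gene, the 3 RNAs held 7.33% and 8.12% in interphase and 6.13% and 5.80% in mitosis without IP. This approximates a share of sequenced fragments only roughly. Genes without a matched transcript are left out, and the longest transcript can overstate the weight of other genes. The length-weighted shares in the IP were 0.0926% and 0.134% in interphase and 0.0686% and 0.0786% in mitosis.

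**Figure D2:**
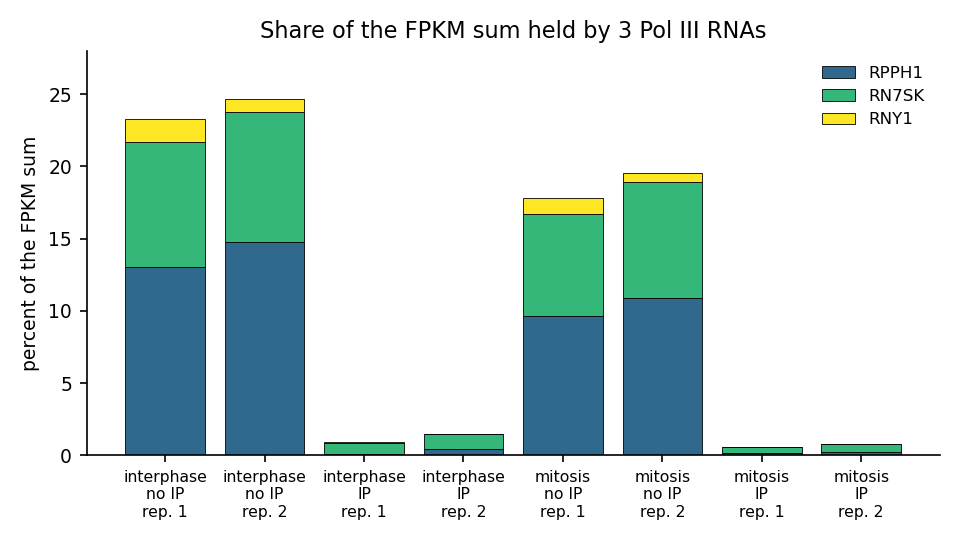
Stacked bars give the percent of the FPKM sum held by RPPH1, RN7SK and RNY1 in each of the 8 libraries (2 replicates of 4 groups). The bars reach 17.8% to 24.7% without IP and 0.582% to 1.50% in the IP.

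The ratio of the FPKM level in the IP to that without IP was larger for RN7SK than for RPPH1 and RNY1. The FPKM sums of the IP libraries were lower than those without IP, so these ratios depend on the scaling and are not recovered fractions. By replicate number, the RN7SK level in the interphase IP was 2.94% and 3.22% of that without IP, and in mitosis it was 1.97% and 2.44%. For RPPH1 the IP level was 0.246% and 0.889% of that without IP in interphase, and 0.684% and 0.827% in mitosis. For RNY1 it was 0.192% and 0.502% in interphase, and 0.860% and 0.549% in mitosis. The RN7SK ratio was above the others in each of the 4 pairs, while those of RPPH1 and RNY1 overlapped each other. After rescaling each library to the same sum (TPM), RN7SK had 86287 and 89710 in interphase without IP. In the interphase IP it had 7904.5 and 10236.5 on that scale.

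On the log2(FPKM + 1) scale the mean IP difference in interphase was -8.30 for RNY1, -7.74 for RPPH1 and -5.02 for RN7SK. RNY1 and RPPH1 were the 2 most depleted of all 13471 genes, RNU6ATAC had rank 3 at -6.04 and RN7SK rank 4, followed by RNVU1-14 at -4.81. In mitosis the differences were -7.16 for RNY1, -7.05 for RPPH1 and -5.51 for RN7SK, the 3 most depleted genes of the table, followed by MIR6516 at -5.00. Over all genes, limma called 37% lower and 37.6% higher in the interphase IP, and 31.7% lower and 32.8% higher in the mitotic IP, at a Benjamini-Hochberg adjusted p below 0.05. These shares depend on the scaling: after rescaling each library to the same sum (TPM), the interphase IP had 9546 genes higher and 1124 lower, against 5068 and 4983 on the FPKM scale. In mitosis the TPM counts were 9671 higher and 281 lower, against 4425 and 4269. TPM rescaling moved the median of all genes by 1.22 in interphase and 1.00 in mitosis (log2), and on that scale the IP differences were -6.59, -6.01 and -3.29 in interphase and -5.74, -5.62 and -4.08 in mitosis for RNY1, RPPH1 and RN7SK. Quantile normalization gave -7.23, -4.85 and -1.18 in interphase and -6.13, -4.76 and -2.68 in mitosis, so the size of the RN7SK difference, and with it its rank, depends on the scaling. The sign stayed negative for all 3 under each scaling tried.

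**Figure D3:**
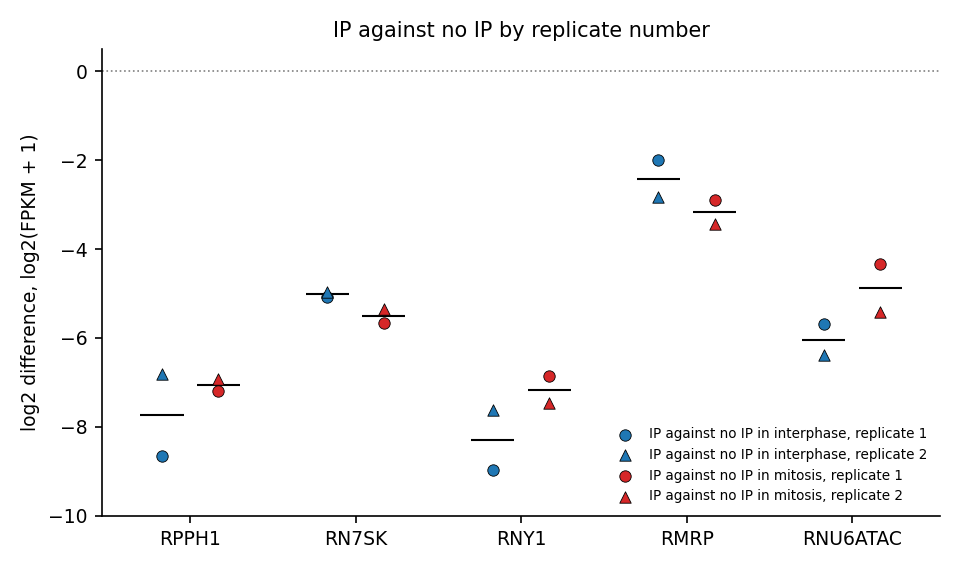
Difference between IP and no IP on the log2(FPKM + 1) scale for same-numbered replicates, in interphase (blue) and mitosis (red); bars are the mean of both replicates. RN7SK lies between -4.95 and -5.67 in all 4 pairs, while RPPH1 and RNY1 lie lower and spread more.

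The order of depletion, RNY1 before RPPH1 before RN7SK, was that of the means in both phases. From interphase to mitosis the mean IP difference went from -8.30 to -7.16 for RNY1 and from -7.74 to -7.05 for RPPH1, a smaller loss in mitosis. For RN7SK it went from -5.02 to -5.51, a larger loss in mitosis. The pairs of RPPH1 in interphase, at -8.66 and -6.81, enclosed both mitotic pairs, at -7.19 and -6.92. Those of RNY1 were -8.98 and -7.61 in interphase and -6.85 and -7.47 in mitosis. Those of RN7SK were -5.09 and -4.95 in interphase and -5.67 and -5.36 in mitosis. These differences rest on the contrast that chose the genes and were not tested. Over all genes limma called the IP difference higher in mitosis than in interphase for 27.2% and lower for 19.9%.

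Of 18 other RNAs of RNA polymerase III that were listed, 2 were measured. RMRP, the RNA of RNase MRP, had 52343 and 54873 FPKM in interphase without IP and 85829 and 91109 FPKM in mitosis without IP. In the IP it had 13086 and 7700 FPKM in interphase and 11574 and 8417 FPKM in mitosis. RMRP was thus lower in all 4 IP libraries than in any library without IP, with a log2 difference of -2.42 in interphase (SE 2.47, limma adjusted p 0.398) and -3.16 in mitosis (SE 2.47, limma adjusted p 0.292), neither past the threshold. Without the variance trend, which sets the spread of genes at such levels, both were called (SE 0.24, limma adjusted p 3.48e-05 and 2.42e-05), the one setting of 16 that did so, with adjusted p up to 0.865 in the others. Its FPKM in the IP was 14.0% to 25.0% of that without IP in interphase and 9.24% to 13.5% in mitosis. These ratios depend on the scaling. After TPM rescaling RMRP had 48142 and 48204 in interphase without IP and 37454 and 23947 in the interphase IP. In mitosis it had 68665 and 89559 without IP and 25178.5 and 22166.5 in the IP. RPPH1, its relative, stood at 2.71 and 3.06 times RMRP in interphase without IP, at 1.41 and 1.21 times in mitosis without IP, and at 0.0267 to 0.194 of RMRP in the 4 IP libraries.

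RNU6ATAC, the U6-type RNA of the minor spliceosome, had 1069 and 255 FPKM in interphase and 262 and 110 FPKM in mitosis without IP. In the IP it had 19.7 and 2.06 FPKM in interphase and 12.1 and 1.62 FPKM in mitosis. It fell by 6.04 in interphase (SE 1.05, limma adjusted p 0.000647) and by 4.87 in mitosis (SE 1.05, limma adjusted p 0.00307) on the log2 scale. Its replicates differed by up to 9.54-fold, more than those of RN7SK, RNY1 or RPPH1.

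The small nuclear RNAs (snRNAs) of the spliceosome made by RNA polymerase II, gave 14 measured genes. In the interphase IP 12 of the 14 were called lower and the other 2 were not called, beside 37% of all genes called lower, with a median log2 difference of -3.84 and a range of -4.81 to -2.45. In the mitotic IP 11 were called lower, beside 31.7% of all genes, with a median of -3.15 and a range of -4.96 to -1.36; this count was 4 after quantile normalization and 5 without mitosis no IP replicate 1 or without mitosis IP replicate 2. The median over all genes was 0.02 in interphase and 0.01 in mitosis. Among the 14 are RNU4ATAC and RNU5F-1, with intervals of 311701 and 50870 nt in the table. Their rows may hold more than the small RNA. RNY1 and RPPH1 lay below the whole snRNA range in both phases, and so did RN7SK.

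The genes nearest in profile over the 8 libraries differed between RN7SK and the other 2 RNAs. With each log2(FPKM + 1) profile centred on its own mean, the root mean square difference from RN7SK was 0.70 for RNU2-2P, 0.72 for SCARNA16 and 0.72 for RNU4-2. The nearest genes to RNY1 were RPPH1 at 0.71, RN7SK at 1.44 and RNU6ATAC at 1.55. The nearest to RPPH1 were RNY1 at 0.71, RN7SK at 1.21 and RNU4-2 at 1.72. SCARNA16 has an interval of 128457 nt in the table and a transcript of 187 nt, so its row may hold more than the small RNA. These distances describe these libraries and are carried largely by the step between IP and no IP.

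The table holds 44 genes whose interval is at most 400 nt, and most of them were lower in the IP. Their median log2 difference was -2.71 in interphase and -1.71 in mitosis, against 0.02 and 0.01 for the 13427 genes with longer intervals, and 38 and 40 of the 44 were below 0. From the most depleted up, RNY1 had rank 1 and RPPH1 rank 2 of the 44 in both phases, and RN7SK rank 4 in interphase and rank 3 in mitosis. Without the 3 RNAs the other 41 short genes ran from -6.04 to 1.50 in interphase, with a median of -2.42, and from -4.96 to 1.40 in mitosis, with a median of -1.67. The part of length in the depletion was not tested.

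**Figure D4:**
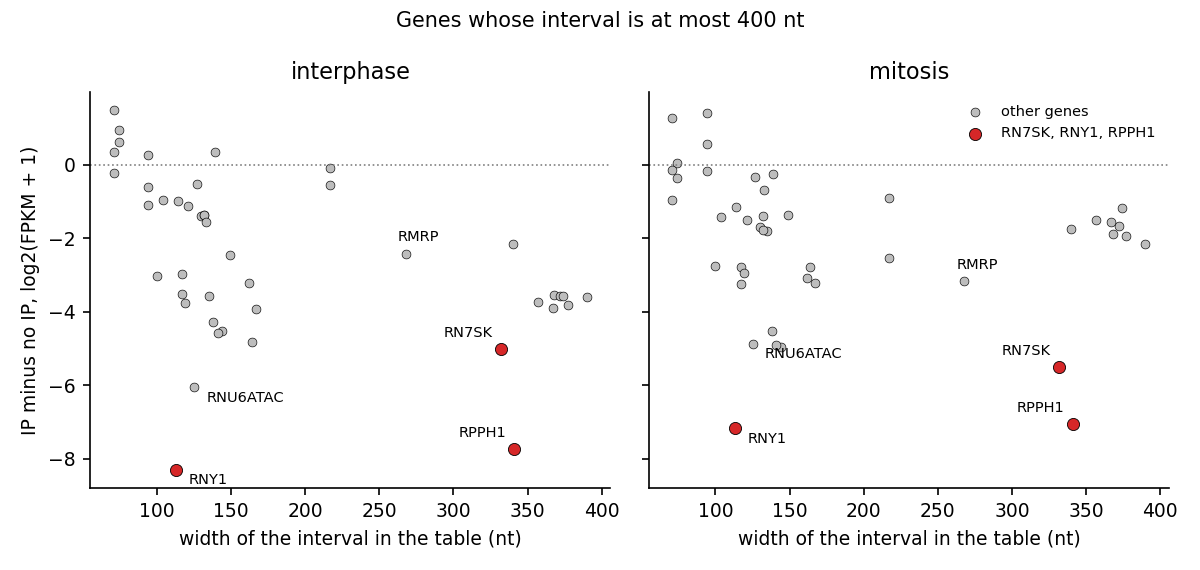
IP minus no IP on the log2(FPKM + 1) scale against the width in nt of each gene's interval in the table, for the 44 genes of at most 400 nt, in interphase (left) and mitosis (right); red points are RN7SK, RNY1 and RPPH1. Genes of 357 to 390 nt, mostly H4 histone genes, lie between -3.90 and -1.18, above the 3 RNAs.

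Mitosis against interphase was not used to choose the 3 RNAs and was tested with limma on all genes. Without IP all 3 had lower means in mitosis, and none passed the threshold. RPPH1 had a log2 difference of -0.42 (SE 1.33, 95% interval -3.45 to 2.62, limma adjusted p 0.818), RN7SK of -0.21 (SE 1.60, interval -3.86 to 3.45, limma adjusted p 0.928) and RNY1 of -0.56 (SE 0.58, interval -1.88 to 0.75, limma adjusted p 0.447). Both mitotic libraries lay below both interphase libraries for RPPH1 and RN7SK, as for 39.4% of all genes, and the RNY1 groups overlapped. In bulk RNA a lower level per cell and fewer cells with that RNA cannot be told apart. Over all genes, 26.2% were called higher and 25.5% lower in this comparison.

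The mitotic level of RPPH1 without IP was 85.2% and 65.8% of the interphase level by replicate number, that of RN7SK 93.9% and 80.1%, and that of RNY1 75.7% and 60.8%. RMRP moved the other way, to 164% and 166% of its interphase level. Its log2 difference of 0.72 (SE 2.47, limma adjusted p 0.83) was called in 1 of the 16 settings, without the variance trend (limma adjusted p 0.0368). RNU6ATAC was at 24.5% and 43.3%, with a log2 difference of -1.61 (SE 1.05, limma adjusted p 0.227) that was not called either. Of the 14 snRNA genes 1 was called lower and 13 were not called, beside 25.5% of all genes called lower and 26.2% higher. Their log2 differences ran from -2.89 to 0.44, so missing calls do not show that levels stayed the same.

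In the IP none of the 3 RNAs was called different between phases. RN7SK had a log2 difference of -0.70 from interphase to mitosis (SE 1.60, interval -4.35 to 2.96, limma adjusted p 0.73), RNY1 of 0.58 (SE 0.58, interval -0.74 to 1.89, limma adjusted p 0.414) and RPPH1 of 0.27 (SE 1.33, interval -2.77 to 3.30, limma adjusted p 0.877). Both mitotic IP libraries lay below both interphase IP libraries for RN7SK, as for 34.6% of all genes, at 62.8% and 60.7% of the interphase level. RNY1 was at 338% in replicate 1 and 66.4% in replicate 2, and RPPH1 at 237% and 61.3%, so the replicates of these RNAs disagreed in direction. The sign of the RPPH1 difference turned to -0.05 after TPM rescaling and to -0.33 after quantile normalization. Over all genes, 35.8% were called higher and 25.6% lower in this comparison (4817 and 3452 genes), against 3047 higher and 4525 lower after TPM rescaling.

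**Figure D5:**
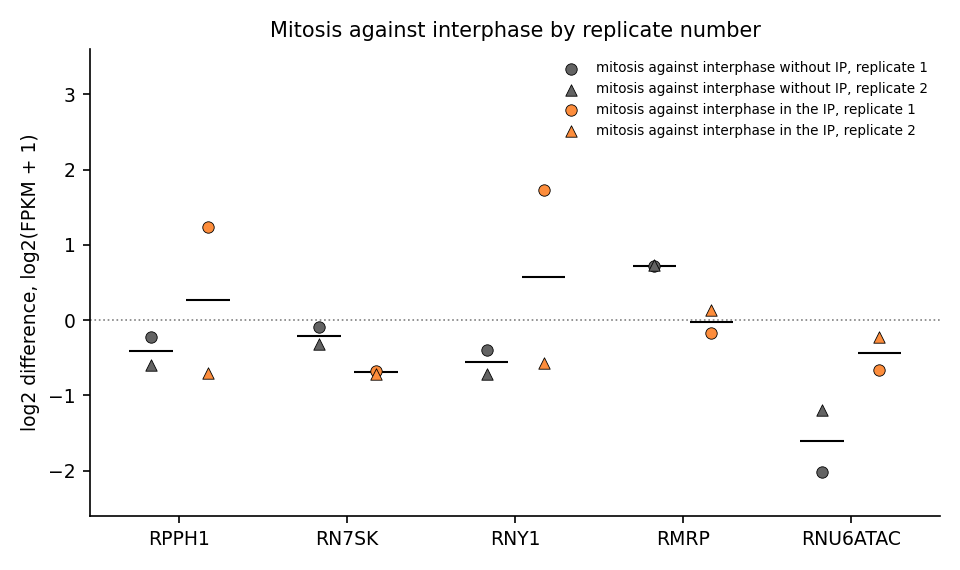
Difference between mitosis and interphase on the log2(FPKM + 1) scale for same-numbered replicates, without IP (grey) and in the IP (orange), with bars at the mean of both. Without IP both points of RPPH1, RN7SK and RNY1 lie below 0 and both of RMRP above it, and in the IP the replicates of RPPH1 and RNY1 lie on opposite sides of 0.

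For RN7SK the call in the IP depended on how the spread was estimated. Its own residual SD over the 4 groups was 0.13 on the log2 scale, while the SD used by limma, which follows the trend of spread with level over all genes, was 1.60. Without that trend the SE of its IP difference between phases was 0.13 and the limma adjusted p was 0.00164, past the threshold, against 0.00164 to 0.842 over the 16 settings. Without IP the same setting gave RN7SK an adjusted p of 0.204, which did not pass. RPPH1 had an own SD of 0.75 and RNY1 of 0.78, and neither was called with or without the trend.

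Of 7 listed genes of the 7SK particle and P-TEFb, 4 were called higher and 3 lower in the interphase IP (0 of them lower after TPM rescaling), and 2 higher and 3 lower in the mitotic IP (6 higher and 1 lower after TPM rescaling). On the FPKM scale the shares over all genes were 37.6% (higher) and 37% (lower) in interphase, and 32.8% and 31.7% in mitosis. After TPM rescaling 9546 of all 13471 genes were higher and 1124 lower in interphase, and 9671 and 281 in mitosis. CCNT2 and CCNT1, the cyclin T subunits of P-TEFb, rose by 1.71 and 1.54 in the interphase IP and by 0.98 and 1.10 in the mitotic IP (limma, log2). MEPCE fell by 1.30 in the interphase IP, a difference that turned to 0.26 after TPM rescaling, and HEXIM2 fell by 1.18, a call lost after TPM rescaling (adjusted p 0.270). In the mitotic IP LARP7 fell by 2.11 and HEXIM1 by 0.54, and the latter turned to 0.75 after TPM rescaling. Between phases without IP, 2 were higher, 1 was lower and 4 were not called, beside 26.2% and 25.5% of all genes: LARP7 rose from 11.6 to 23.7 FPKM (log2 difference 0.97) and MEPCE from 14.8 to 29.1 FPKM (0.93), while HEXIM2 fell by 0.90. In the IP, mitosis had 2 higher and 3 lower, beside 35.8% and 25.6% of all genes. MEPCE differed by 2.49, LARP7 by -1.45 and HEXIM1 by -0.84, and the kinase gene CDK9 by 0.50, a call lost after TPM rescaling (0.25, adjusted p 0.259). None of these values concerns RN7SK itself, whose level without IP was not called different.

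Of the 11 listed protein genes of RNase P and RNase MRP, 10 were measured. In both IP comparisons 2 were called higher and 6 lower, beside 37.6% and 37% of all genes in interphase and 32.8% and 31.7% in mitosis. After TPM rescaling 6 were higher and 3 lower in interphase, beside 9546 and 1124 of all 13471 genes. In mitosis 8 were then higher and 0 lower, beside 9671 and 281 genes. RPP14 rose by 0.97 and POP1, the largest subunit, by 0.77 in the interphase IP, and by 1.14 and 0.31 in the mitotic IP, where POP1 passed in 7 of 16 settings (adjusted p up to 0.246). POP5 and RPP25L fell by 2.27 and 2.04 in the interphase IP. RPP25L and POP4 fell by 0.80 and 0.66 in the mitotic IP, and both turned positive after TPM rescaling, to 0.40 and 0.67. Between phases without IP 3 were higher and 4 lower, beside 26.2% and 25.5% of all genes, with RPP14 at 0.57 and POP1 at 0.52. POP1 was called in 13 of 16 settings. Its call was lost after TPM rescaling (limma adjusted p 0.0508) and without interphase no IP replicate 1 or mitosis no IP replicate 1. The lower genes included RPP25 at -1.04, from a mean of 2.38 to 0.647 FPKM, and RPP25L at -0.92. In the IP, mitosis had 5 higher and 1 lower, beside 35.8% and 25.6% of all genes, led by POP7 at 1.55 and POP5 at 0.98, and RPP38 was the one lower gene at -0.46.

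All 7 listed genes of Y RNA-binding proteins were measured. In the interphase IP 4 were called higher and 2 lower, beside 37.6% and 37% of all genes. After TPM rescaling 6 were higher and 0 lower there, beside 9546 and 1124 of all 13471 genes. In the mitotic IP 1 was higher and 5 lower, beside 32.8% and 31.7% of all genes. After TPM rescaling 3 were higher and 1 lower there, beside 9671 and 281 genes. TROVE2, the older symbol of the gene of Ro60, rose from 25.5 to 98.7 FPKM in the interphase IP and from 26.4 to 102 FPKM in the mitotic IP, a log2 difference of 1.91 in both. MATR3 rose by 1.26 in the interphase IP, where PUF60 fell by 1.95 (a call lost after TPM rescaling, adjusted p 0.126) and NCL by 0.49, the latter turning to 1.21 after TPM rescaling and losing its call without interphase no IP replicate 1, without interphase IP replicate 2 and after median centring (adjusted p up to 0.200). SSB, the gene of the La protein, fell by 1.93 in the mitotic IP, and NCL by 1.92, the latter a call lost after TPM rescaling (adjusted p 0.0542). Between phases without IP 4 were higher and 1 lower, beside 26.2% and 25.5% of all genes, with MOV10 at 0.79, NCL at 0.76 and SSB at -0.64. In the IP, mitosis had 1 higher and 5 lower, beside 35.8% and 25.6% of all genes, PUF60 at 0.83, and SSB at -2.36 and MATR3 at -1.38 in the lower direction. The 4 higher genes without IP became 2, NCL no longer among them, without interphase no IP replicate 2, the lower one (SSB) was not called after TPM rescaling or without interphase no IP replicate 1 or mitosis no IP replicate 1, and the 5 lower genes in the IP became 3 without mitosis IP replicate 1. The mRNA of Ro60 thus rose in the IP in both phases, whereas that of La, which also binds Y1, fell in the mitotic IP. Binding of Y1 by either protein was not measured.

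All 25 listed genes of the RNA polymerase III machinery were measured. In the interphase IP 8 were called higher and 12 lower, beside 37.6% and 37% of all genes. In the mitotic IP 7 were higher and 15 lower, beside 32.8% and 31.7% of all genes. After TPM rescaling 17 were higher and 2 lower in interphase, beside 9546 and 1124 of all 13471 genes. In mitosis 17 were then higher and 0 lower, beside 9671 and 281 genes. POU2F1, which encodes a factor that activates genes of the 7SK and RNase P RNA kind, rose by 1.97 and 1.66 in the interphase and mitotic IP, and POLR3B, a large subunit, by 1.41 and 1.39. MAF1, the repressor of RNA polymerase III, fell by 2.78 and 1.45, SNAPC2 by 2.15 in the interphase IP and POLR3GL by 1.50 in the mitotic IP, where MAF1 and POLR3GL lost their calls after TPM rescaling (adjusted p 0.762 and 0.149). Between phases without IP 10 were higher and 3 lower, beside 26.2% and 25.5% of all genes. Fewer were higher without either interphase no IP replicate, fits for which no share of all genes is given here. The largest differences with all libraries kept were POLR3A at 1.04, SNAPC4 at 0.85, POLR3GL at -0.70 (not called without mitosis no IP replicate 2) and MAF1 at -0.59. In the IP, mitosis had 11 higher and 4 lower, beside 35.8% and 25.6% of all genes, with POLR1C at 1.50, BDP1 at -1.18 and POLR3GL at -1.11. Over the 49 measured protein genes of the 4 lists, 19 were higher and 9 lower in mitosis without IP, beside the 26.2% and 25.5% of all genes given above.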

How the data were processed

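The deposited gene table was used, with 1 column of FPKM for each of the 8 libraries, as the authors made it, per the file headers. The submitters' processing notes name TopHat, StringTie and the builds hg38 and hg19 without roles or versions; how reads with several positions were treated, and any scaling beyond FPKM, are not given in the sources used here. A second deposited table, of lncRNAs on another build, was not used here. No value of the table is 0. A gene that the naming rule selects is not reported here. The genes described and the lists were chosen with earlier results of these data known. Named genes were RN7SK, RNY1 and RPPH1, each measured gene of the list of other RNA polymerase III RNAs, from each protein list up to 2 called genes with the largest log2 difference in each direction and comparison, and the 3 genes nearest in profile.

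limma 3.58.1 in R 4.3.3 (lmFit, eBayes with a variance trend) was fitted to log2(FPKM + 1) of all 13471 genes with 1 coefficient for each of the 4 groups and no filter. Calls were Benjamini-Hochberg adjusted p below 0.05. Such fold changes understate changes of genes near 1 FPKM.  The fit was tested on simulated data. The alternatives were a pseudocount of 0.1, a mean FPKM of at least 1, TPM rescaling, median centring, quantile normalization, a replicate block, no variance trend, and leaving out each library. Of the genes, 12681 (94.1%) matched GENCODE 29 by symbol and took its longest transcript for lengths and sequences. Structures came from RNAfold 2.7.2. The total of fragments per library is unknown.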

Additional observations from a re-analysis of the deposited data

Results flagged for a closer look

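By the limma interaction test the effect of the IP differed between phases for 26 of the 49 listed protein genes, 13 higher and 13 lower, beside 27.2% and 19.9% of all genes. The 21 given here (adjusted p between 4.83e-05 and 0.0488) are those that the naming rule picked for large differences in the other comparisons. Values are the IP difference in mitosis minus that in interphase, on the log2(FPKM + 1) scale, and a negative value means a relatively lower IP level in mitosis. In the 7SK particle and P-TEFb they were -2.42 for LARP7, -1.02 for HEXIM1, -0.72 for CCNT2, 1.02 for HEXIM2 and 1.56 for MEPCE. Among RNase P and RNase MRP proteins they were -0.47 for POP1, 0.99 for RPP25, 1.25 for RPP25L, 1.49 for POP7 and 1.78 for POP5. Among Y RNA-binding proteins they were -1.94 for MATR3, -1.72 for SSB, -1.55 for MOV10, -1.43 for NCL and 0.50 for PUF60. In the RNA polymerase III machinery they were -1.90 for BDP1, -1.24 for POLR3A, -0.71 for SNAPC4, 0.96 for POLR1C, 1.33 for MAF1 and 1.42 for SNAPC2. HEXIM2, RPP25 and SNAPC4 had mean levels below 1 FPKM in both IP groups, so the added 1 weighs heavily on their values. RPP25, at 0.315 FPKM in the interphase IP and 0.274 FPKM in the mitotic IP, was present in 15 settings and called in each. Of the 16 settings, POP1 was called in 8 (each library left out ended its call), PUF60 in 12 (not after TPM rescaling, nor without interphase no IP replicate 1, mitosis no IP replicate 1 or mitosis IP replicate 2), SNAPC4 in 13 (not with a pseudocount of 0.1, after TPM rescaling or without interphase no IP replicate 2), and HEXIM2 and POLR1C in 15 (not without interphase IP replicate 1 and not after TPM rescaling, respectively).

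The difference was largest in size for LARP7, with mean levels of 11.6 (no IP) and 14.6 (IP) FPKM in interphase, and 23.7 (no IP) and 4.70 (IP) FPKM in mitosis. The corresponding MEPCE levels were 14.8 and 5.48 FPKM in interphase, then 29.1 and 35.1 FPKM in mitosis. The same difference was -0.49 for RN7SK, 1.14 for RNY1 and 0.68 for RPPH1, given as a description since the IP contrast chose these RNAs. With single libraries left out it ran from -0.62 to -0.36 for RN7SK, from 0.30 (without mitosis IP replicate 1) to 1.97 (without mitosis IP replicate 2) for RNY1, and from -0.36 (without interphase IP replicate 1), with the sign turned, to 1.73 (without interphase IP replicate 2) for RPPH1.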

How the results depend on the processing

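The tests of mitosis against interphase rested on 2 libraries a group, and the depth in fragments is unknown, so counting error could not be set beside any value. Without IP, RN7SK, RNY1 and RPPH1 kept their negative sign and stayed uncalled in each of the 16 settings run. In the IP, RN7SK was -0.70 with a limma adjusted p of 0.00164 without the variance trend, the one setting with a call. RPPH1 was -0.0498 after TPM rescaling and -0.33 after quantile normalization. With single libraries left out, RPPH1 in the IP ran from -0.78 (without interphase IP replicate 1) to 1.31, and RNY1 in the IP from -0.26 (without mitosis IP replicate 1) to 1.41. The cause of these changes was not tested.

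The IP differences of RN7SK, RNY1 and RPPH1 stayed negative throughout. In interphase they were -3.29, -6.59 and -6.01 after TPM rescaling and -1.18, -7.23 and -4.85 after quantile normalization, and RN7SK was -4.90 after median centring. In mitosis they were -4.08, -5.74 and -5.62 after TPM rescaling and -2.68, -6.13 and -4.76 after quantile normalization. With single libraries left out, RN7SK in interphase ran from -5.15 to -4.89, RPPH1 in interphase from -8.78 (without interphase IP replicate 2) to -6.69 (without interphase IP replicate 1) and RNY1 in mitosis from -7.998 to -6.32. The mean share of the FPKM sum changed from 24.0% to 7.73% when weighted by length in interphase without IP (39.6% without the 10 other genes of highest level), from 18.7% to 5.97% in mitosis without IP (33.1% without those genes), from 1.20% to 0.113% in the interphase IP and from 0.679% to 0.0736% in the mitotic IP.

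Counts of calls moved with TPM rescaling. In the interphase IP it gave 9546 genes higher and 1124 lower, with 34 and 5 of the 49 listed protein genes, and in the mitotic IP 9671 and 281, with 34 and 2. The counts on the FPKM scale for these listed genes were 18 higher and 23 lower in interphase, beside 37.6% and 37% of all genes. For mitosis they were 12 higher and 29 lower, beside 32.8% and 31.7% of all genes. In mitosis against interphase it gave 2244 higher and 2215 lower without IP, against 3530 and 3433, and 3047 higher and 4525 lower in the IP, against 4817 and 3452, with 10 and 12 listed genes higher against 19 in each. With single libraries left out, the number of listed genes higher in mitosis without IP was lowest without interphase no IP replicate 2. Shares of all genes in those fits are not given here.

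Replicates share the numbers 1 and 2 in each group. Deviations of same-numbered libraries correlated across genes at 0.0883 to 0.528 between groups, and with 2 numbers the pairing is not established. With the replicate block the adjusted p without IP was 0.903 for RN7SK (log2 -0.21), 0.335 for RNY1 (-0.56) and 0.766 for RPPH1 (-0.42), and in the IP 0.649, 0.307 and 0.843, so no call of these RNAs changed. The replicate block gave 5217 genes higher and 5157 lower in the interphase IP.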
